A study of Mus musculus with 3 samples.

Results

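The 9 genes described here are used as markers of subtypes of dopaminergic neurons (DNs) of the midbrain. *Sox6*, *Aldh1a1*, *Ndnf*, *Kcnj6* and *Satb1* are mostly used for the nigral type, and *Calb1*, *Calb2*, *Lpl* and *Neurod6* for types of the ventral tegmental area (VTA). Accessible chromatin at these genes was read from a list of peaks called in DNs by single-nucleus ATAC-seq (snATAC-seq), a method in which a transposase inserts adaptors into open chromatin of isolated nuclei. A peak was assigned to a gene when it overlapped the gene body of the GENCODE M21 annotation, or the 50 kb on either side of it, by at least 1 bp. This gave 73 of the 55326 peaks of the list, or 0.132%, for 9 of 21755 protein-coding genes.

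The nuclei came from the midbrain VTA of wild-type male C57Bl/6Nl mice, 7 weeks old for replicate 1 and 9 weeks old for replicate 2. The 2 DN libraries were combined in 1 list, which gives a position for each peak (mm10, 500 bp wide) and no score, count or library of origin. There is therefore no spread between replicates and no test in what follows, and the depth behind each peak is not known from the list. Bulk ATAC-seq of mouse embryonic stem cells, the other sample of the series, was not analysed here.

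DNs make dopamine from tyrosine and project to the striatum and cortex. They share a set of enzymes, transporters and transcription factors, but differ in firing, projections, calcium handling and vulnerability, and subtypes are told apart by additional genes that are each active in some of the neurons. An accessible peak marks DNA that is free enough of nucleosomes to be cut, typically at an active transcription start site (TSS) or at an enhancer. In a list pooled over all DNs, a region open in few neurons and a region weakly open in many cannot be told apart, and a region without a peak is one where no peak was called.

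All 10 markers of DNs as a class that were examined had a peak centred within 1 kb of a TSS, among them *Th*, which encodes tyrosine hydroxylase, and *Slc6a3*, which encodes the dopamine transporter. Each had between 8 and 46 peaks within 50 kb. *Th* and other markers had served the authors to choose the DN cluster. Of 8 markers of oligodendroglia, astrocytes and microglia, 1 (*Mbp*) had a TSS peak, 3 had a peak in the gene body (*Mbp* 6, *Gfap* 2 and *Cx3cr1* 9), and 7 had between 2 (*Aqp4*) and 16 (*Mog*) peaks within 50 kb, while *Olig2* had none. The median density within 50 kb was 4.45 peaks per 100 kb for the oligodendroglial, 4.79 for the astrocyte and 3.41 for the microglial markers, each above the 2.13 of the 9 genes. Within gene bodies alone, the medians were 0, 7.37 and 2.67 peaks per 100 kb, against 7.21 for the 9 genes. These lists are short, with 4, 2 and 2 genes. In gene bodies, the astrocyte value is the midpoint of *Gfap* (14.7) and *Aqp4* (0). The microglial value is that of *Cx3cr1* (5.35) and *P2ry12* (0). The part of such cells in the peaks of the 9 genes was not tested.

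The peaks that lie closest to the start sites of the 9 genes are shown first, because they are the candidate promoters. Of these genes, 6 had a peak centred within 1 kb of a TSS, and the central 200 bases of the nearest such peak follow. All sequences are the plus strand of GRCm38, the assembly of mm10, written 5′ to 3′. A lone capital marks the first base of an annotated transcript, and a run of capitals marks 1 of the 11 motifs described further on. *Kcnj6*, *Satb1* and *Calb2* lie on the minus strand, so that transcription reads their sequences from right to left.
Aldh1a1, chr19:20601768-20601967: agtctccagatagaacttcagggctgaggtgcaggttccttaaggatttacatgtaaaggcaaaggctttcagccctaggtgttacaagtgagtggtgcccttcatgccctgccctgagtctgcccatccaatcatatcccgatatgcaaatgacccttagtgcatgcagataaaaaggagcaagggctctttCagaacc
Ndnf, chr6:65671511-65671710: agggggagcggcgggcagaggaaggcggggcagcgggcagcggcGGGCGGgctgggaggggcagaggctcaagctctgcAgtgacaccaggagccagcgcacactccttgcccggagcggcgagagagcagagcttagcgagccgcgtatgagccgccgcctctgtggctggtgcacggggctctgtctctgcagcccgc
Kcnj6, chr16:94997646-94997845: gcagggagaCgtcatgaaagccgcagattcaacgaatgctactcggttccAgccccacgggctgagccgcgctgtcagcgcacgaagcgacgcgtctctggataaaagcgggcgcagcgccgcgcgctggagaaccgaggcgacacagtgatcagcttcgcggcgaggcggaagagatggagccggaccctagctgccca
Satb1, chr17:51812333-51812532: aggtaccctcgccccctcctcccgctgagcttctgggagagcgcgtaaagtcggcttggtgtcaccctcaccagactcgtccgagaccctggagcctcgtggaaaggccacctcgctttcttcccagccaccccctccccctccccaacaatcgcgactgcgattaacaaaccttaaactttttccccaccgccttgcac
Calb1, chr4:15881143-15881342: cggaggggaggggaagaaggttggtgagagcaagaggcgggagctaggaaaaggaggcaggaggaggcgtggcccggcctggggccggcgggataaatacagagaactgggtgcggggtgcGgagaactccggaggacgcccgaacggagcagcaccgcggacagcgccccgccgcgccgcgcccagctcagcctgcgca
Calb2, chr8:110168203-110168402: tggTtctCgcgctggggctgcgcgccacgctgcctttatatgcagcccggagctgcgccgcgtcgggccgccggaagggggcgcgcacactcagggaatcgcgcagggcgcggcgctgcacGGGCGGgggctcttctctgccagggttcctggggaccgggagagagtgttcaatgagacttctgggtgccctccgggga
The stretches of *Ndnf*, *Calb1*, *Calb2* and *Kcnj6* are rich in G and C and each contains at least 1 start base. That of *Satb1* lies inside the transcript, just downstream of its start site. That of *Aldh1a1* also contains a start base but has few CG pairs.

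For *Sox6*, *Lpl* and *Neurod6*, no peak was centred within 1 kb of a TSS. The central 200 bases of the peak nearest to a start site of each are given instead, because they are the closest accessible DNA that the list holds for these genes. The *Sox6* peak lies nearer to the annotated 5′ end of a neighbouring gene.
Sox6, chr7:116040306-116040505: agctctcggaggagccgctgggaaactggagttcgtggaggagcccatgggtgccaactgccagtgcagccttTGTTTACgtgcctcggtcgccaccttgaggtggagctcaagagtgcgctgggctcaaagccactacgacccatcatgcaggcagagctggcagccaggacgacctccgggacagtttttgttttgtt
Lpl, chr8:68890431-68890630: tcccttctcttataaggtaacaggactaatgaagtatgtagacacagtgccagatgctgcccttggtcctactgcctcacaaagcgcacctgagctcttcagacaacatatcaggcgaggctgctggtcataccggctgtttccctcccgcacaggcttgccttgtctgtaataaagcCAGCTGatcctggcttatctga
Neurod6, chr6:55649997-55650196: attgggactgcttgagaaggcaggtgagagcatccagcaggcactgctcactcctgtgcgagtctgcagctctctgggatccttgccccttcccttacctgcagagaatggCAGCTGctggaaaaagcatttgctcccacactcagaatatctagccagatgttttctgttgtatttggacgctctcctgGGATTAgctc
The *Sox6* stretch contains a forkhead word (TGTTTAC), the *Lpl* stretch an E-box (CAGCTG), and the *Neurod6* stretch an E-box and a bicoid word (GGATTA, the reverse complement of TAATCC).

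Every one of the 9 genes had at least 1 peak within 50 kb, 8 had a peak in the gene body and 6 had a TSS peak. Among all protein-coding genes these shares were 83.2%, 63.8% and 56.4%. The share of 66.7% with a TSS peak is thus close to the background, and for genes of their lengths the background was 37.5% below 10 kb, 62.1% from 10 to 50 kb, 73.7% from 50 to 200 kb and 81.1% above 200 kb. In the same order, the share with a body peak was 40.2%, 70.2%, 86.5% and 95.7%. The share with a peak within 50 kb was 69.1%, 88.4%, 95.0% and 97.5%. Of the 9 genes, only *Neurod6* is below 10 kb. The median was 5 peaks per gene within 50 kb and 3 in the gene body, against 4 (quartiles 2 and 9) and 1 (quartiles 0 and 2) over all genes. Per 100 kb of gene body and flanks, the median of the 9 genes was 2.13 peaks, against 3.10 over all genes (quartiles 0.965 and 6.74). Per 100 kb of gene body alone the order turned, with a median of 7.21 for the 9 genes and 2.92 over all genes. From the shortest to the longest length class, the medians over all genes were 0, 1, 2 and 6 body peaks. Per 100 kb of gene body they were 0, 4.88, 2.48 and 1.48. Within 50 kb they were 3, 5, 5 and 8 peaks, or 2.85, 3.69, 2.65 and 1.58 per 100 kb.

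The 73 peaks were unevenly shared out. *Kcnj6* alone held 34 of them and *Calb2* 12, whereas *Satb1* had 7, *Aldh1a1* and *Calb1* 5 each, *Sox6* and *Ndnf* 3 each, and *Lpl* and *Neurod6* 2 each. Without *Kcnj6*, 39 peaks remained, of which 22 lay in gene bodies. Of the 73 peaks, 49 overlapped a gene body, 10 lay upstream and 14 downstream. The 5 nigral-type genes had 52 peaks and the 4 VTA-type genes 21, a split in which the 34 of *Kcnj6* weigh most. Without *Kcnj6*, the nigral-type genes had fewer peaks than the VTA-type genes. The median per 100 kb of gene body and flanks was 2.13 for the nigral and 2.94 for the VTA type. In gene bodies alone it was 7.21 and 5.59.

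**Figure D1:**
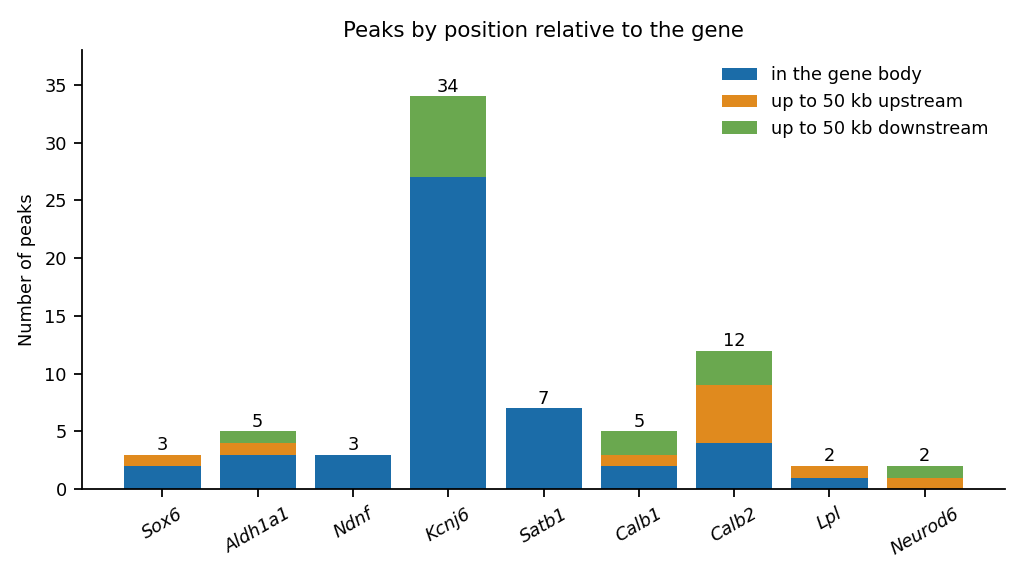
Number of accessible peaks of DNs at each of the 9 genes (y axis), split into peaks in the gene body, up to 50 kb upstream and up to 50 kb downstream; the number above each bar is the total. *Kcnj6* stands apart with 34 peaks, 27 of them in the gene body, and *Neurod6* has none in its gene body.

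**Figure D2:**
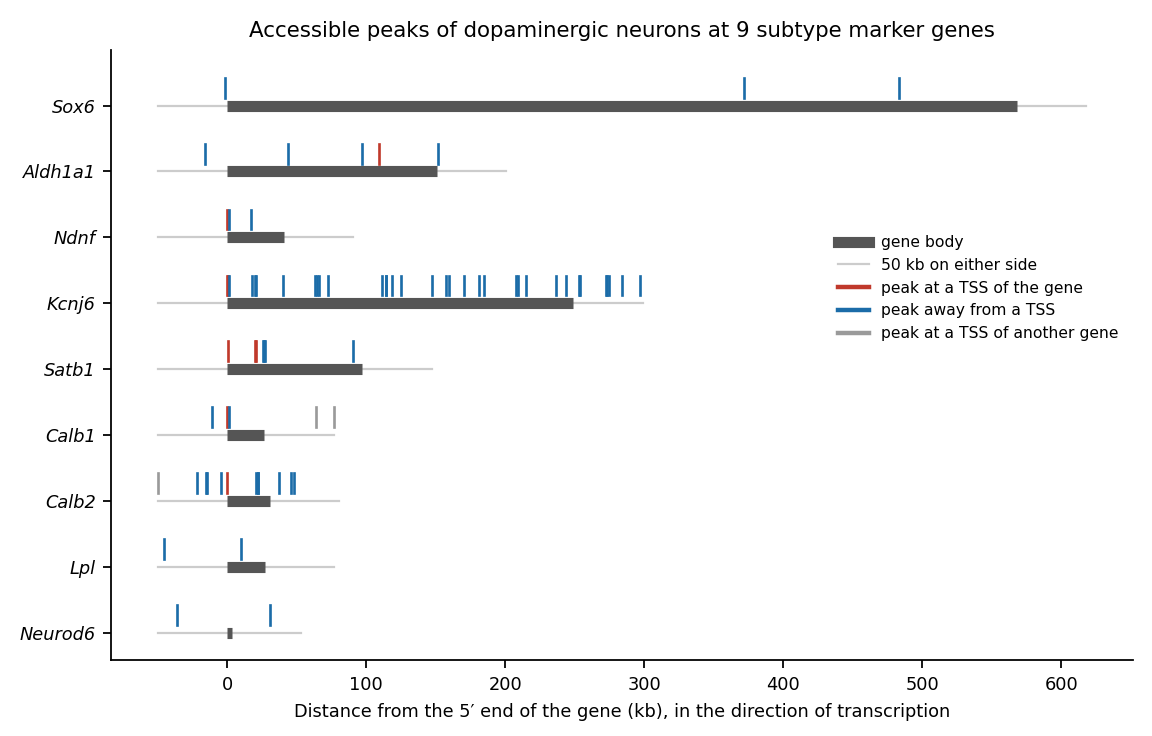
Position of each peak by its distance from the 5′ end of the gene (x axis, kb, in the direction of transcription), with 1 row per gene. Thick bars are gene bodies and thin lines the 50 kb on either side. The peaks of *Kcnj6* run along the whole gene and past its 3′ end, those of *Satb1* and *Ndnf* lie within the gene, and *Sox6* has 2 peaks in its 568-kb body.

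Among the genes used for the nigral type, *Sox6* encodes a transcription factor of the Sox family that is needed for the development of these neurons. It is the longest of the 9 genes (chr7:115470872-116038796, minus strand, 567.9 kb) and had only 3 peaks. A first peak at chr7:116040156-116040655 was centred 1661 bp upstream of the outermost *Sox6* start site, within the neighbouring gene 1110004F10Rik, which starts 0.601 kb away on the other strand. The peak lay nearer to the annotated 5′ end of that neighbour (1008 bp) than to the *Sox6* start site, and it is counted here because it lies 1.36 kb outside the *Sox6* gene body, within the 50-kb flank. That 5′ end belongs to no basic transcript and was not used as a TSS. The other 2 peaks lay in intron 5 and intron 10 of 16, at chr7:115666633-115667132 and chr7:115555456-115555955, 111.2 kb apart. None of the 6 annotated start sites of *Sox6* had a peak within 1 kb. The gene body held 0.35 peaks per 100 kb, which ranked 905 of 998 genes over 200 kb, and 87.6% of those genes had at least 2 peaks in the body.

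*Aldh1a1* encodes an aldehyde dehydrogenase that makes retinoic acid and clears the aldehyde of dopamine. The gene (chr19:20492715-20643465, plus strand, 150.8 kb) had 5 peaks, 3 of them in the body. The annotation gives 2 start sites for it, an outer and an inner one. The outer start site, that of the transcript chosen as principal, had its nearest peak 16.077 kb upstream, at chr19:20476389-20476888. The inner start site had a peak centred 94 bp upstream of it, at chr19:20601618-20602117, which lies in intron 3 of the longer transcript. Further peaks lay in intron 2 and intron 3 and just beyond the 3′ end, so that no 2 neighbouring peaks were closer than 12.4 kb. Of 4002 genes of 50 to 200 kb, 44.1% had at least as many body peaks.

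*Ndnf* encodes a secreted factor of neurons (chr6:65671590-65712326, plus strand, 40.7 kb). All 3 of its peaks lay in the gene body, and the next peak outside was 86.1 kb from the gene. A first peak, centred 20 bp downstream of its only TSS at chr6:65671361-65671860, overlapped exon 1 of 4. Both others lay in intron 1, centred 1324 bp and 17.413 kb downstream of the TSS. In its length class of 10 to 50 kb, 19.2% of 9062 genes had at least 3 body peaks.

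*Kcnj6* encodes GIRK2, a subunit of potassium channels that are opened through dopamine D2 autoreceptors, and is used for the nigral type although many VTA neurons express it too. The gene (chr16:94748636-94997701, minus strand, 249.1 kb) had 27 peaks in the body, 7 downstream and none upstream. With 10.8 body peaks per 100 kb it ranked 20 of 998 genes over 200 kb, a class whose median was 1.48, and 5.61% of that class had at least 27 body peaks. TSS peaks were centred 49 bp upstream of the principal TSS (chr16:94997496-94997995) and 499 bp downstream of a start site (chr16:94996907-94997406). Introns 1, 2 and 3 of the principal transcript held 6, 12 and 6 peaks. Neighbouring peaks were a median of 5.97 kb apart, and 15 of the 33 neighbouring pairs lay within 5 kb of each other. The pair of start sites in the middle of the gene had no peak within 1 kb, and the closest lay 6.542 kb downstream. Beyond the 3′ end, the peaks reached 47.4 kb from the gene, and the outermost was nearer to the TSS of *Dyrk1a*, which encodes a protein kinase.

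*Satb1* encodes a chromatin-organizing transcription factor. The gene (chr17:51736187-51833290, minus strand, 97.1 kb) had 7 peaks, all in the body, and the next peak was 285.7 kb away. This was the widest gap outside any of the 9 genes. TSS peaks numbered 3, at 3 of its 7 start sites. They lay at the 5′ end, centred 0.334 kb upstream of the principal TSS (chr17:51832757-51833256), and about 20 kb into the gene at a second start site, centred 248 bp downstream and 842 bp upstream of it (chr17:51812183-51812682 and chr17:51813273-51813772). A group of 3 peaks followed in intron 2, the closest 0.601 kb apart, and the last peak overlapped exon 10 of 11, 63.5 kb further on. Of genes of 50 to 200 kb, 13.9% had at least 7 body peaks.

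Among the genes used for VTA types, *Calb1* encodes calbindin, a calcium-binding protein. The gene (chr4:15881264-15908064, plus strand, 26.8 kb) had 5 peaks. A TSS peak was centred 22 bp upstream of its only start site (chr4:15880993-15881492) and a second peak 1200 bp downstream, in intron 2 of 10. A further peak lay 10.983 kb upstream, at chr4:15870032-15870531. The remaining peaks, 64.104 and 76.975 kb downstream of the TSS, were TSS peaks of *Decr1*, a mitochondrial enzyme of fatty acid oxidation, and *Nbn*, a DNA repair factor.

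*Calb2* encodes calretinin, a calcium-binding protein related to calbindin. The gene (chr8:110137502-110168210, minus strand, 30.7 kb) had 12 peaks, 4 in the body, 5 upstream and 3 downstream. Its density of 13.0 body peaks per 100 kb was the highest of the 9 genes, and 11.1% of genes of 10 to 50 kb had at least 4 body peaks. The TSS peak (chr8:110168053-110168552) was centred 92 bp upstream of a start site. Upstream peaks followed at 4.156, 14.174, 14.941 and 21.385 kb, and the fifth was a TSS peak of *Cmtr2*, which encodes an enzyme that methylates messenger RNA caps. In the body, intron 7 held 1 peak and intron 9 held 2. The 3 downstream peaks were nearer to the TSS of Gm21964 than to that of *Calb2*.

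*Lpl* encodes lipoprotein lipase, which releases fatty acids from lipoproteins. The gene (chr8:68880491-68907448, plus strand, 27.0 kb) had 2 peaks and no TSS peak. They lay in intron 2 of 9, 10.039 kb downstream of the TSS (chr8:68890281-68890780), and 45.484 kb upstream, nearer to the TSS of *Ints10*. At least 1 body peak was found in 70.2% of genes of 10 to 50 kb.

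*Neurod6* encodes a basic helix-loop-helix transcription factor of neurons. It is the shortest of the 9 genes (chr6:55677822-55681263, minus strand, 3.44 kb) and had no peak in its body or at its TSS. Its 2 peaks lay 36.179 kb upstream (chr6:55717193-55717692) and 31.167 kb downstream of the TSS (chr6:55649847-55650346). Of 7693 genes under 10 kb, 37.5% had a TSS peak.

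The limit of 50 kb set which distant peaks were counted. The outermost peaks inside it were those at the TSSs of *Nbn*, 49.9 kb from *Calb1*, and *Cmtr2*, 49.4 kb from *Calb2*, and the nearest outside it lay 54.2 kb from *Sox6* and 55.5 kb from *Kcnj6*. For 65 of the 73 peaks (89.0%, 95% exact binomial confidence interval 79.5 to 95.1%), the nearest protein-coding TSS was that of the gene itself. This share was 57.5% when TSSs of all gene types were considered, among them long non-coding and small RNA genes within and around *Kcnj6*. Intervals of shares cover counting error only, and peaks of 1 gene share a locus.

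**Figure D3:**
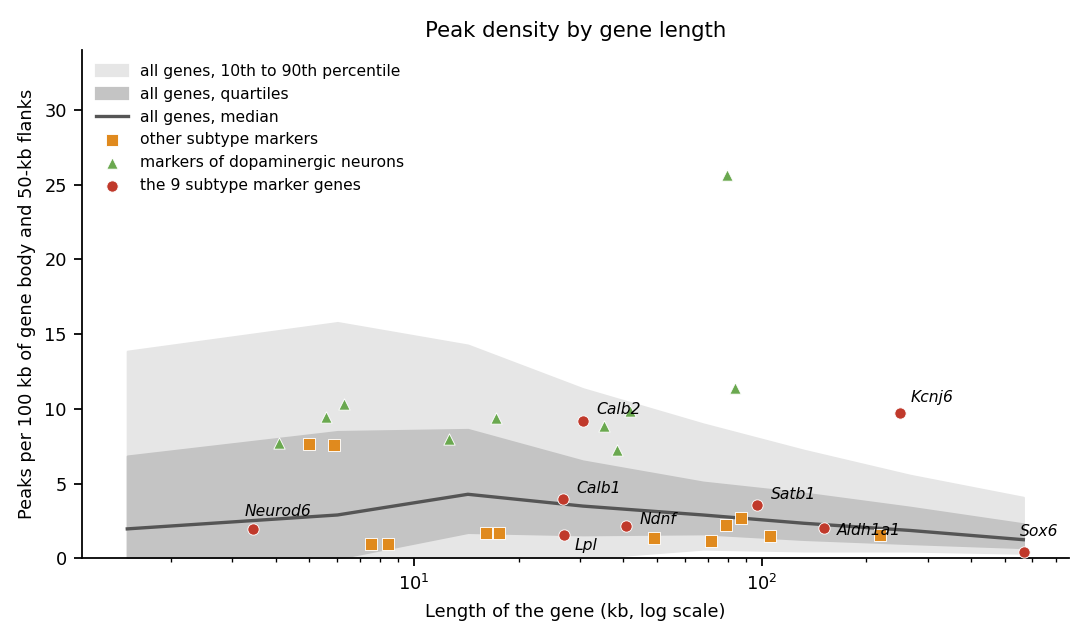
Peaks per 100 kb of gene body and 50-kb flanks (y axis) against gene length (x axis, kb, log scale) for the 9 genes, 12 other subtype markers and 10 markers of DNs, over the median, quartiles and 10th to 90th percentiles of all protein-coding genes. *Kcnj6* (9.74) lies above the 90th percentile of genes of its length and *Sox6* (0.449) below the lower quartile.

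Density within 50 kb was lower at most subtype markers than at the markers that all DNs share. The 10 shared markers had between 7.23 and 25.6 peaks per 100 kb, with a median of 9.43. Only *Kcnj6* (9.74) and *Calb2* (9.18) of the 9 genes fell into that range, and the other 7 had between 0.449 (*Sox6*) and 3.94 (*Calb1*). A further 12 genes used as markers of DN subtypes had a median of 1.63 and a range from 0.923 to 7.62, and *Slc32a1* (7.62) and *Cck* (7.56) among them reached the range of the shared markers. Per 100 kb of gene body alone, the medians were 30.6 for the shared markers, 7.21 for the 9 genes and 2.42 for the 12. These are descriptions of 1 list, and some of the shared markers were used to choose the nuclei.

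Of the 12 further subtype markers, all had a peak within 50 kb, 9 had a peak in the body and 7 (58.3%) had a TSS peak, a share near the background of 56.4%. The genes with a TSS peak were *Otx2*, a transcription factor of ventral VTA neurons, *Cck*, a neuropeptide, *Slc17a6* and *Slc32a1*, vesicular transporters of glutamate and of the inhibitory transmitters, *Tacr3*, a tachykinin receptor, *Lmo3*, a transcriptional cofactor, and *Igf1*, a growth factor. *Cck* and *Slc32a1* had 8 peaks each within 50 kb, 7 of which lay outside the body in both cases. *Vip*, *Gad2* and *Anxa1* had no peak in the body. The peak nearest to the TSS of *Gad2*, which encodes an enzyme of GABA synthesis, was 99801 bp away. *Adcyap1*, a neuropeptide, and *Vcan*, a matrix proteoglycan, had their nearest peaks 1126 and 1822 bp downstream of a TSS, just beyond the 1 kb used to define a TSS peak.

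Start sites with a peak were mostly richer in GC than those without. The 9 genes have 25 annotated start sites, of which 10 had a peak within 1 kb. In the 501 bases centred on the TSS, GC content was 48.3 to 77.2% at the 10 sites with a peak and 31.9 to 59.3% at the 15 without. The ratio of observed to expected CG pairs, which is high in CpG islands, was 0.103 to 0.986 at sites with a peak and 0.079 to 0.589 at those without. Over all genes, the medians were 63.7% and 0.805 for 11845 genes with a peak at the principal TSS, and 49.7% and 0.224 for 9910 genes without. The inner TSS of *Aldh1a1* (48.3% and 0.103) was the only 1 of the 10 sites with values as low as the median of genes without a peak. Of the genes without a TSS peak, *Neurod6* (47.5% and 0.213) was close to that median, and *Lpl* (51.3% and 0.589) had more CG pairs. *Sox6* was lower at its principal TSS (36.9% and 0.127), while another of its start sites had 59.3% and 0.455.

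**Figure D4:**
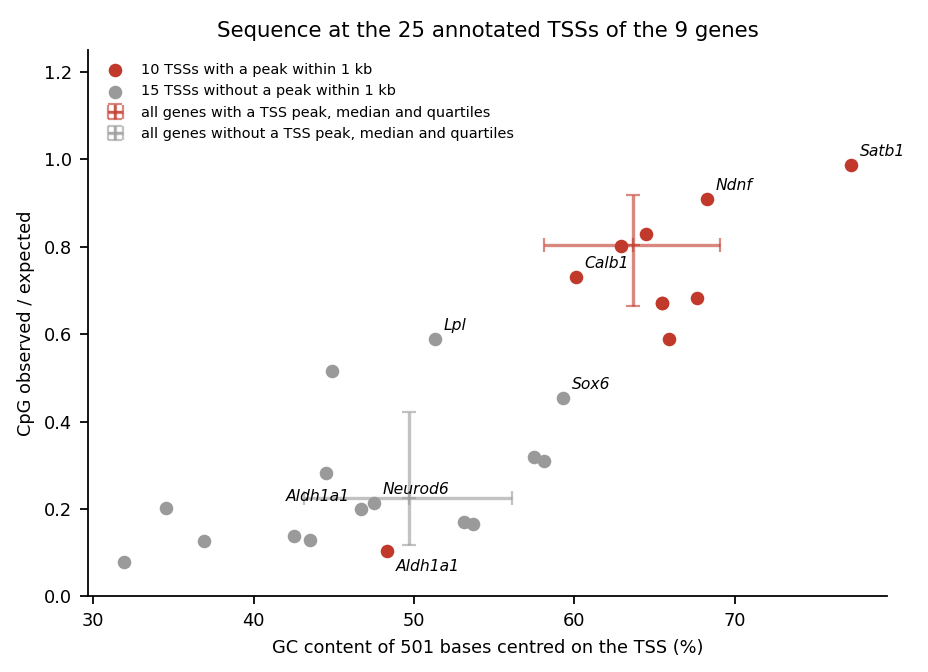
GC content (x axis, %) and observed over expected CG pairs (y axis) of 501 bases around each of the 25 annotated start sites, with a peak within 1 kb (red, 10) or without (grey, 15). Crosses give the median and quartiles of all protein-coding genes with and without a peak at the principal TSS. All red points but that of *Aldh1a1* lie at a ratio of 0.590 or more.

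By position, 12 of the 73 peaks (16.4%, interval 8.79 to 27.0%) were at a TSS of a protein-coding gene, 40 (54.8%, 42.7 to 66.5%) in an intron, 1 (1.37%) in an exon and 20 (27.4%) between genes. Over all peaks of the list, 30.1% were at a TSS, 37.5% in an intron, 5.74% in an exon and 26.6% between genes. The lower TSS share and higher intron share followed *Kcnj6*, of whose 34 peaks 25 were intronic and 2 at a TSS. Without it, 25.6% of the remaining peaks were at a TSS (13.0 to 42.1%) and 38.5% in an intron (23.4 to 55.4%), and both intervals contain the shares of all peaks. Median GC content was 50.0% in the 73 peaks and 52.0% in all peaks. It was 61.0% in the 9 peaks at own TSSs and 49.6% in the 61 away from any TSS, against 62.2% and 49.4% for the same classes of all peaks.

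Finally, 11 short motifs were searched on both strands of the 73 peaks. They were forkhead (TGTTTAC or TATTTAC, for factors such as Foxa1 and Foxa2), NBRE (AAAGGTCA, for Nr4a2 and its relatives), homeodomain (TAATTA, as for Lmx1b and En1), bicoid (TAATCC, as for Pitx3 and Otx2), Sox (AACAATG), the Neurod E-box (CAGATGG), the E-box CAGCTG, AP-1 (TGANTCA), CRE (TGACGTCA), the GC box (GGGCGG) and the CTCF core. Matches to different motifs may overlap. A match is a word in the sequence and not a bound site.

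The most frequent were the E-box, in 23 peaks (31.5%, interval 21.1 to 43.4%), and the forkhead word, in 14 (19.2%, 10.9 to 30.1%). Their shares among all peaks were 30.9% and 12.8%. NBRE was found in 6 peaks (8.22%, 3.08 to 17.0%) against 4.00% of all peaks, and bicoid in 12 (16.4%, 8.79 to 27.0%) against 13.6%. These intervals contain the shares of all peaks. For NBRE this rested on *Kcnj6* and on the length searched. Without *Kcnj6*, NBRE was in 5 of 39 peaks (12.8%, 4.30 to 27.4%), and in the central 200 bp of all 73 it was in 5 (6.85%, 2.26 to 15.3%) against 2.13% of all peaks, and neither interval contains the share of all peaks. Away from TSSs, NBRE was in 6 of 61 peaks (9.84%, 3.70 to 20.2%), against 5.12% of all such peaks, which lies within the interval. The share of all peaks was within the interval also for the homeodomain word (2.74% against 7.27%), the Neurod E-box (8.22% against 11.5%), AP-1 (8.22% against 12.3%) and the CTCF core (5.48% against 5.25%). GC boxes were in 12 peaks (16.4%, 8.79 to 27.0%), against 32.3% of all peaks, which lies above the interval. Without *Kcnj6* it was 8 of 39 (20.5%, 9.30 to 36.5%), and in the central 200 bp 10 of 73 (13.7%, 6.77 to 23.8%) against 22.6%, and both intervals contain the share of all peaks. Away from TSSs, 5 of 61 peaks (8.20%, 2.72 to 18.1%) had a GC box, against 15.9%, which lies within the interval. CRE was in 0 of 73 peaks, which allows a share of up to 4.11% if 3 counts are taken as the limit of a count of 0, and 1.51% of all peaks had it. Sox was also in 0 of 73, and 5.03% of all peaks had it, a share above that limit and just above the upper bound of the exact interval, 4.93%. Without *Kcnj6*, 0 of 39 allows up to 7.69%, and in the central 200 bp 1.79% of all peaks had it, below the limit for 0 of 73, so that a difference was not detectable in either case. Away from TSSs, Sox was in 0 of 61 peaks, with an exact upper bound of 5.87%. Of all such peaks, 6.07% had it, a share just above that bound. No motif was found in 23 of the 73 peaks (31.5%, 21.1 to 43.4%), against 18.3% of all peaks, and without *Kcnj6* in 11 of 39 (28.2%, 15.0 to 44.9%), an interval that contains 18.3%. Away from TSSs it was 20 of 61 (32.8%, 21.3 to 46.0%), against 20.96% of all such peaks, just below the interval.

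**Figure D5:**
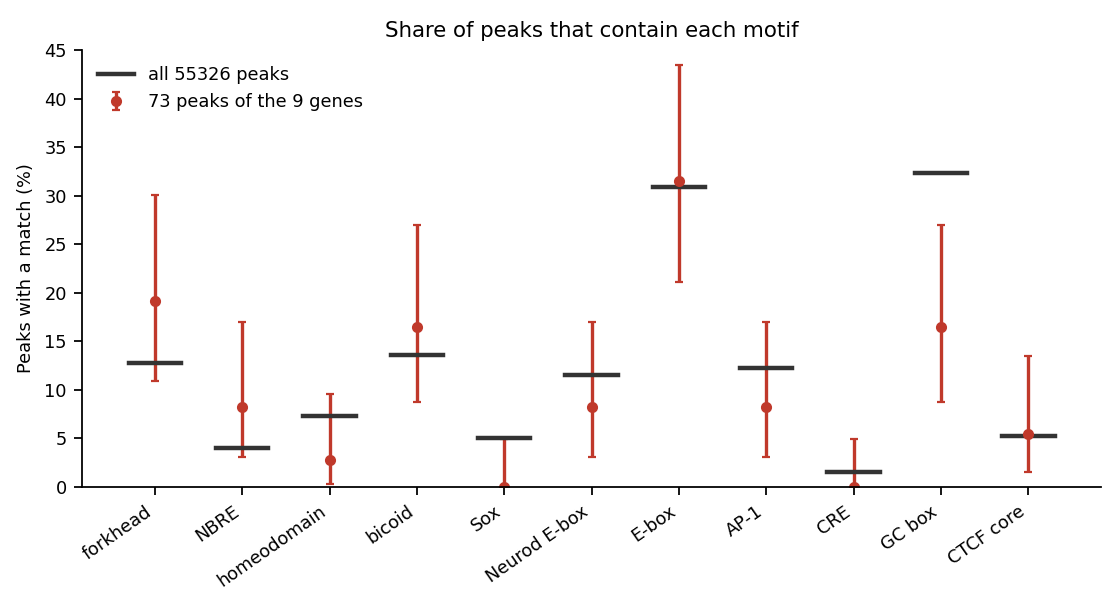
Share of peaks that contain each of 11 motifs (y axis, %), for the 73 peaks of the 9 genes (points, with 95% exact binomial intervals) and all 55326 peaks (bars). The share of all peaks lies above the interval for the GC box (16.4% against 32.3%) and just above it for Sox, and within it for the other 9 motifs. Without *Kcnj6* the intervals for the GC box and Sox contain the share of all peaks, and that for NBRE does not.

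Most of the genes had too few peaks to compare forkhead words between them, and 12.8% of all peaks held such a word. Forkhead words were found in 3 of 3 *Sox6* peaks, 2 of 5 *Aldh1a1* peaks, 7 of 34 *Kcnj6* peaks, 1 of 7 *Satb1* peaks and 1 of 5 *Calb1* peaks, and in none of the 12 *Calb2* peaks or of the peaks of *Ndnf*, *Lpl* and *Neurod6*. Of the *Sox6* peaks, 1 was nearer to the annotated 5′ end of a neighbouring gene. Away from any TSS, the peaks with the most motifs held 4 different ones each. They were an intronic peak of *Sox6* and the upstream peak of *Calb1*, both with forkhead, NBRE, bicoid and E-box words, and a peak in intron 3 of *Kcnj6* with forkhead, bicoid, Neurod E-box and E-box words. The median was 1 motif per peak, both in the 61 peaks away from TSSs of these genes and in all 38649 such peaks of the list. The highest count among all such peaks was 7. How many of them held 4 or more was not counted, so whether 4 is unusual was not tested. The central 200 bases of the peaks named are shown because they held the most motifs. Some of the words lie outside the part printed.
Sox6, chr7:115555606-115555805: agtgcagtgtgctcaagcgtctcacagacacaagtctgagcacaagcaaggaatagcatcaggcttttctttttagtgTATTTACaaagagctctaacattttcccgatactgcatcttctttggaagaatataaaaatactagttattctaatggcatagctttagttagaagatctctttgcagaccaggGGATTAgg
Calb1, chr4:15870182-15870381: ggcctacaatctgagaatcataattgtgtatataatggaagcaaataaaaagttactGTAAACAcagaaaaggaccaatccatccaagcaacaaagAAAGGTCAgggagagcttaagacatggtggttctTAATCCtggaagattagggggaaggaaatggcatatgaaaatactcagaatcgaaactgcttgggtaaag
Kcnj6, chr16:94782585-94782784: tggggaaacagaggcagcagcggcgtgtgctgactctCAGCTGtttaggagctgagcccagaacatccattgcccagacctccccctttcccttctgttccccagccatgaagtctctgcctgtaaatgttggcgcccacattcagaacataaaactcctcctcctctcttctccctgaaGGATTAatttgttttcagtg
In the *Calb1* stretch, a forkhead word (GTAAACA), an NBRE (AAAGGTCA) and a bicoid word (TAATCC) follow each other. The *Sox6* stretch holds a forkhead word (TATTTAC) and a bicoid word (GGATTA), and the *Kcnj6* stretch an E-box (CAGCTG) and a bicoid word (GGATTA).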

How the data were processed

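snATAC-seq was performed on 2 DN libraries from the mouse midbrain VTA. Following the study's methods, the authors mapped reads to mm10 with Cell Ranger, removed doublets and low-quality nuclei, clustered nuclei with ArchR, chose the DN cluster by marker genes and called reproducible peaks. The deposited list holds positions only and pools both libraries, and other values such as scores, counts per peak or depth are not given in it. The study's methods describe a filter on peaks found in a minimum share of nuclei, and whether the list carries it is not given in the sources used here. Starts were read as counted from 0 and are printed counted from 1.

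Peaks were counted over GENCODE M21 genes and sequence was taken from GRCm38. The principal transcript of a gene was the one with the best APPRIS level, then the longest coding sequence. Start sites were those of basic transcripts. Intervals are 95% exact binomial. The 9 genes and all lists were chosen with earlier results of these data known. The text names the 9 genes, 12 other subtype markers and neighbours with a TSS peak, and printed sequences are the peak nearest to a TSS and the TSS-distant peaks with the most motifs. The peaks printed for the 3 genes without a TSS peak, the neighbours 1110004F10Rik, *Dyrk1a*, Gm21964 and *Ints10*, and the cell type markers named were chosen after their values were seen. The procedures were tested on simulated data. Counts and intervals were computed in Python 3.11.15 with scipy 1.17.1, pandas 2.3.3 and numpy 2.4.6, and plots drawn with matplotlib 3.10.9.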

Additional observations from a re-analysis of the deposited data

How the results depend on the processing

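Of 21 alternatives for the counts and shares, 18 stayed within the limits set, 1.5 times the reported value for a count and the exact interval for a share. The 3 exceptions were the number of peaks within 50 kb without *Kcnj6* (39, against 73), the number in gene bodies without *Kcnj6* (22, against 49), an alternative chosen after seeing the data, and the share of peaks nearest to the gene's own TSS when TSSs of all gene types were considered (57.5%, against 89.0%). The number of genes with a TSS peak was 5 with principal start sites only, when *Aldh1a1* was lost, and 7 with a distance of 2 kb, when *Sox6* was gained. Of 33 alternatives for the motif shares, 5 moved outside the interval. They were 4 of 11 when only the central 200 bp were searched, which shortens the sequence, and the CTCF core, at 0% in gene bodies. Without *Kcnj6*, the exact intervals of the GC box and of Sox contained the share of all peaks and that of NBRE no longer did. Starts counted from 1 were tried for the counts only and changed none. No paired analysis was possible because the list pools both libraries. For the same reason no replicate could be left out, and a stricter peak threshold was not run because the list has no score.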

Other observations

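A further peak soon after the promoter was seen in 3 of the 9 genes, a pattern chosen after its values were seen. Of the 6 genes with a TSS peak, *Ndnf*, *Calb1* and *Kcnj6* had a further peak centred 1 to 2 kb downstream of the same start site (1324, 1200 and 1616 bp). Of the 12272 protein-coding genes with a TSS peak, 1867 (15.2%) had one. The pattern was picked from these same 6 genes, so the shares are a description and cannot serve as a test of a difference. The cause of the pattern was not tested.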
